A study of Mus musculus with 4 samples.

Results

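Immediate-early genes are switched on within minutes of a stimulus, before any new protein is made. Serum response factor and its partners, phosphorylated by MAP kinases, and CREB start their transcription, and the transcripts are short-lived. Most of the genes described here encode transcription factors: FOS and JUN proteins pair through leucine zippers to form AP-1, EGR proteins bind GC-rich elements through zinc fingers, and ATF3 pairs with JUN proteins or with itself. Ier2 encodes a small nuclear protein of the same early response, and Dusp1 a nuclear phosphatase that switches MAP kinases off. In the gut they respond to growth factors, cytokines, wounding and the handling of tissue.

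The group held 10 genes chosen by name (Fos, Fosb, Jun, Junb, Egr1, Egr2, Egr3, Ier2, Atf3 and Dusp1), of 20832 genes that the array measured by a named probe. This group and all gene lists below were chosen with earlier results of these data known. Their counts beside the shares of the whole array are therefore descriptions and no independent support. Whole colons of C57BL/6J mice aged 14 weeks, all given 1.75% dextran sulfate sodium (DSS) in the drinking water to injure the colonic epithelium, were compared between wild-type (WT) and STAP-2-/- animals. STAP-2 is an adaptor protein that binds STAT3 and other signalling proteins. The labels give the treatment as 3 days in one place and 7 days in another. Each array, a 1-colour Agilent design, took the pooled RNA of 3 mice, which gave 2 WT arrays (WT 1 and WT 2) and 2 STAP-2-/- arrays (STAP-2-/- 1 and STAP-2-/- 2). Pools of 1 genotype are labelled as biological replicates, and p-values of the genotype comparison measure the spread between these pools only. In the comparison by pool number each side holds 1 WT and 1 STAP-2-/- array, so p-values there measure the spread between genotypes. There was no array from colons without DSS.

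Values are log2 of the processed signal relative to the 75th percentile of the same array, so that 0 is that percentile. The level of a gene was compared between arrays for 1 probe at a time. Only the summed levels of marker lists add different probes. They are not in log2, and the brightest probes weigh most in them. Stap2, the deleted gene, read 2.92 and 2.98 on the WT arrays, and neither STAP-2-/- array measured it well above background. All 10 colon epithelium markers on the array were well above background and tested. The labels say that the RNA came from the entire colon, so fewer cells of a type and less RNA per cell cannot be told apart. All 4 arrays lay on 1 slide and were read in 1 scan. WT 1, STAP-2-/- 1, WT 2 and STAP-2-/- 2 lay at positions 1, 2, 3 and 4, so the pool number follows the position, and the labels do not say what else pools of equal number share. Across 15144 genes measured on every array, log2 differences had an SD of 0.317 for STAP-2-/- 1 against WT 1 and 0.359 for STAP-2-/- 2 against WT 2, and an SD of 0.397 for WT 2 against WT 1 and 0.610 for STAP-2-/- 2 against STAP-2-/- 1.

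The 250 bases before the start are shown for the 3 genes with the largest difference between pools, Atf3, Junb and Fos, and for Egr2, which ran the other way. Promoter sequences of 7 of the 10 genes were found in the RefSeq table used here (build GRCm38.p6). Each is written 5′ to 3′ on the strand of its gene, and capitals mark matches, on either strand, to the motifs searched.
Atf3, chr1:191183334-191183583, minus strand: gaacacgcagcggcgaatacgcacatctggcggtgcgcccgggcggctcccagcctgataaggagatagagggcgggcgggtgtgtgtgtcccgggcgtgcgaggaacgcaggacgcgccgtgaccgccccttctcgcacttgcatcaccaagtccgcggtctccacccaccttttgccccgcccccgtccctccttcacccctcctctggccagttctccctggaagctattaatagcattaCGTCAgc
Junb, chr8:84978749-84978998, minus strand: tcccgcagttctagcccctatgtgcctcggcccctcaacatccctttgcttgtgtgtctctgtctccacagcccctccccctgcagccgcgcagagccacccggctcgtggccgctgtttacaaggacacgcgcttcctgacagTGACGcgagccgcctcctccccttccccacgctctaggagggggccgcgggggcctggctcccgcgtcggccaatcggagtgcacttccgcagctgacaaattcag
Fos, chr12:85473640-85473889, plus strand: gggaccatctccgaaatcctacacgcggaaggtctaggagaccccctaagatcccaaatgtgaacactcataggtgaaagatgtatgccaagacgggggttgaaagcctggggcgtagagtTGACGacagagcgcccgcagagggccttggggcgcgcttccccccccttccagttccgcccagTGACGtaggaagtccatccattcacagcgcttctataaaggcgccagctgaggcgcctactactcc
Egr2, chr10:67537619-67537868, plus strand: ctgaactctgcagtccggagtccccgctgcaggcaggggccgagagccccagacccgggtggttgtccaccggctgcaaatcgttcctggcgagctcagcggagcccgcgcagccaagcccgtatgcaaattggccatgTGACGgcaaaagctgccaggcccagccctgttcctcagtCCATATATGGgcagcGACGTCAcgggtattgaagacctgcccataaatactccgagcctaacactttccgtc
The motifs were the core of the cAMP response element (TGACG), its longer form (TGACGTC, which contains the core), the AP-1 element (TGANTCA), the STAT element (TTCNNNGAA), the EGR element (GCGNGGGCG) and the CArG box of serum response factor. Over the same 250 bases, 17.8% of all 32851 promoters in the table held the core, 2.78% the longer form, 6.75% the AP-1 element, 7.02% the STAT element, 4.70% the EGR element and 1.47% a CArG box. In these windows Fos held the core at 2 places, and Atf3 and Junb each held it at 1. The Egr2 window, 1 of 5 starts in the table, held a CArG box and the longer cAMP form side by side and the core at 1 further place. This CArG box reads the same on both strands. Not all Egr2 starts were alike. The window chr10:67537316-67537565 held another CArG box (CCTTTTTTGG) and no cAMP form, and chr10:67535249-67535498 held none of the motifs. Of the windows not printed, Fosb held the core and an EGR element, Dusp1 held the longer form, and Jun held none of these letters. A match is a description of the letters in the window and does not show that a factor binds there. Bases farther than 250 from the start were not searched, so a gene whose window lacks a motif may hold it elsewhere. Any link between these motifs and the difference between pools was not tested.

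Of the 10 genes, 9 were well above background on all 4 arrays, and each was measured by 1 probe. Egr3, a zinc finger factor of lymphocytes and neurons, was not well above background on any array. Its processed signal was 6.02 on WT 1, 5.77 on WT 2, 5.67 on STAP-2-/- 1 and 4.63 on STAP-2-/- 2. Egr3 was therefore left out of the tests and of every count that follows.

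The first comparison asked how early genes of the injured colon stood without STAP-2. No member passed. The fitted log2 difference, STAP-2-/- minus WT, was above 0 for 9 of 9 members, and 48.3% of 15559 tested genes had a difference above 0. It ran from 0.077 for Egr1 to 0.36 for Dusp1, with a median of 0.23 over the members and -0.0068 over all tested genes. The standard errors ran from 0.171 to 0.591, and the limma adjusted p was 1 for each member after rounding. By the same limma test 0 genes of the whole array passed at an adjusted p of 0.05, a share of 0%, while 325 genes (2.09%) had an unadjusted p under 0.05, of which 124 (0.797%) were higher and 201 (1.29%) lower in STAP-2-/-; 0 members were among them. The deleted gene Stap2 did not pass either, with a fitted difference of -10.1 (SE 0.410, limma adjusted p = 0.314). With so few arrays the test missed even that gene, so a member that did not pass is not shown to be unchanged. This genotype fit held no term for the pool number, so its standard errors also hold the difference between pools 1 and 2. With the number added as a block, the members' standard errors ran from 0.104 (Ier2) to 0.229 (Egr1). Their lowest limma adjusted p was then 0.699. The median over the members depended on which array was left out. Without STAP-2-/- 1 the median was -0.25, without WT 2 it was -0.037, without WT 1 it was 0.45 and without STAP-2-/- 2 it was 0.64. With 1 array left out, 7 of the 9 differences changed sign, and those of Jun (0.071 to 0.40) and Dusp1 (0.083 to 0.64) stayed above 0, both at their lowest without STAP-2-/- 1.

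Both pools of a genotype were then set apart. In the arrays numbered 1, STAP-2-/- 1 exceeded WT 1 for 9 of 9 members, by 0.15 (Ier2) to 0.58 (Egr2) with a median of 0.45, and 49.6% of all tested genes were higher there. In the arrays numbered 2, STAP-2-/- 2 exceeded WT 2 for 5 of 9 members, with a median of 0.044 and a range from -0.29 (Egr1) to 0.30 (Ier2), and 48.2% of all tested genes were higher. Ier2 was the 1 member with the larger excess in pool 2. The signs were opposite for 4 members (Fos, Fosb, Egr1 and Egr2), and 44% of all tested genes had opposite signs, a share near that of the members. For Fos, Egr1 and Egr2 both differences exceeded 0.052, the largest median SD between spots of an array. Opposite signs with both beyond 0.052 held for 27.3% of all tested genes, again near the members' share. T cell markers were higher in STAP-2-/- for 6 of 6 tested genes, with a median of 0.68 and summed levels of 1.96 on WT 1, 2.03 on WT 2, 2.35 on STAP-2-/- 1 and 3.20 on STAP-2-/- 2; enteric neuron and glia markers were lower for 9 of 9, with a median of -0.35, and fibroblast markers for 7 of 7, with a median of -0.32. Smooth muscle markers were lower for 9 of 9, with a median of -0.091, and adipocyte markers for 5 of 6, with a median of -0.61. None of these passed limma, and their part in the members' values was not tested.

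**Figure D1:**
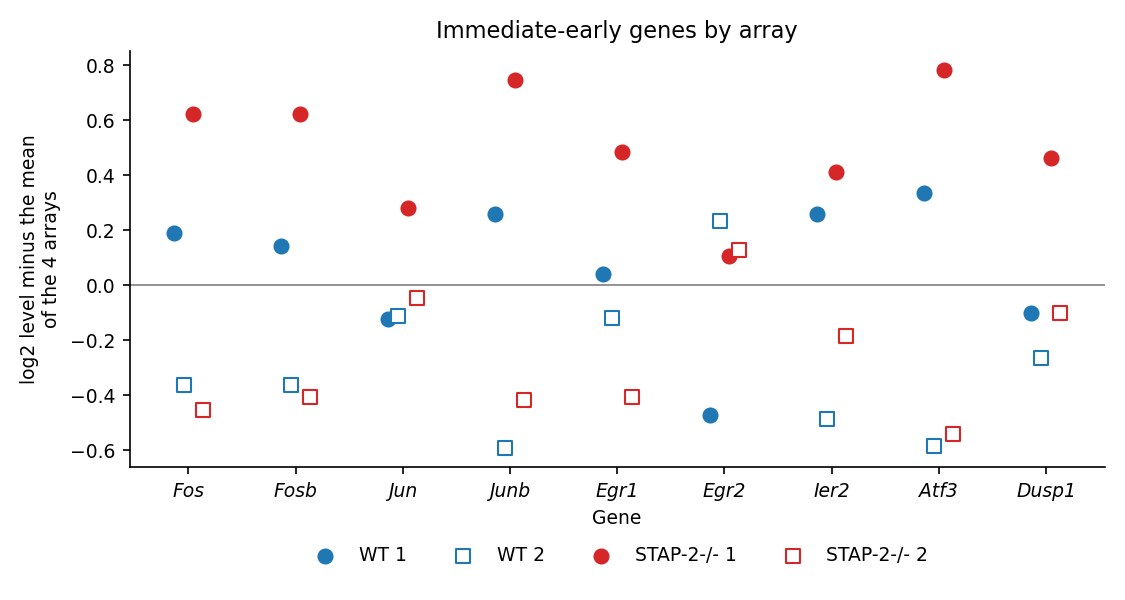
Level of each measured immediate-early gene on the 4 arrays. The y axis is the log2 level minus the gene's own mean over the arrays; blue is WT, red is STAP-2-/-, filled circles are the arrays numbered 1 and open squares those numbered 2, and each point is 1 array. STAP-2-/- 1 is the highest point for 8 of 9 genes, and Egr2 is the exception.

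STAP-2-/- 1 was the highest of the 4 arrays for 8 of 9 members, which 34% of all tested genes share. For those 8 it led the next array by 0.15 (Ier2) to 0.56 (Dusp1). The order STAP-2-/- 1, WT 1, STAP-2-/- 2, WT 2 held for 4 members (Junb, Ier2, Atf3 and Dusp1) and for 10.3% of all tested genes. The order STAP-2-/- 1, WT 1, WT 2, STAP-2-/- 2 held for 3 members (Fos, Fosb and Egr1) and for 14.7% of all tested genes.

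Pool 1 was compared with pool 2 across both genotypes, with 2 arrays, 1 of each genotype, on each side. The fit held no term for genotype, so its standard errors, intervals and p-values rest on the spread between a WT and a STAP-2-/- array. The arrays did not overlap for 8 of 9 members, 7 of them lower in pool 2; of all 15560 tested genes, 62.4% did not overlap by number, and 36.1% did so with pool 2 lower and 26.4% with pool 2 higher. The fitted difference was above 0 for 1 of 9 members and for 44.8% of all tested genes. The median log2 difference, pool 2 minus pool 1, was -0.67 over the members and -0.041 over all tested genes. No member passed the limma test, with adjusted p from 0.101 to 0.580, and 0 genes of the array passed, a share of 0%. Before adjustment, 3943 genes (25.3%) had a p under 0.05, 14.7% lower and 10.6% higher in pool 2; so did 5 of the 9 members (Fos, Fosb, Junb, Ier2 and Atf3), all lower in pool 2. The members' shares of lower and non-overlapping genes thus stood above those of the array in a comparison where most of the array also separated by number.

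**Figure D2:**
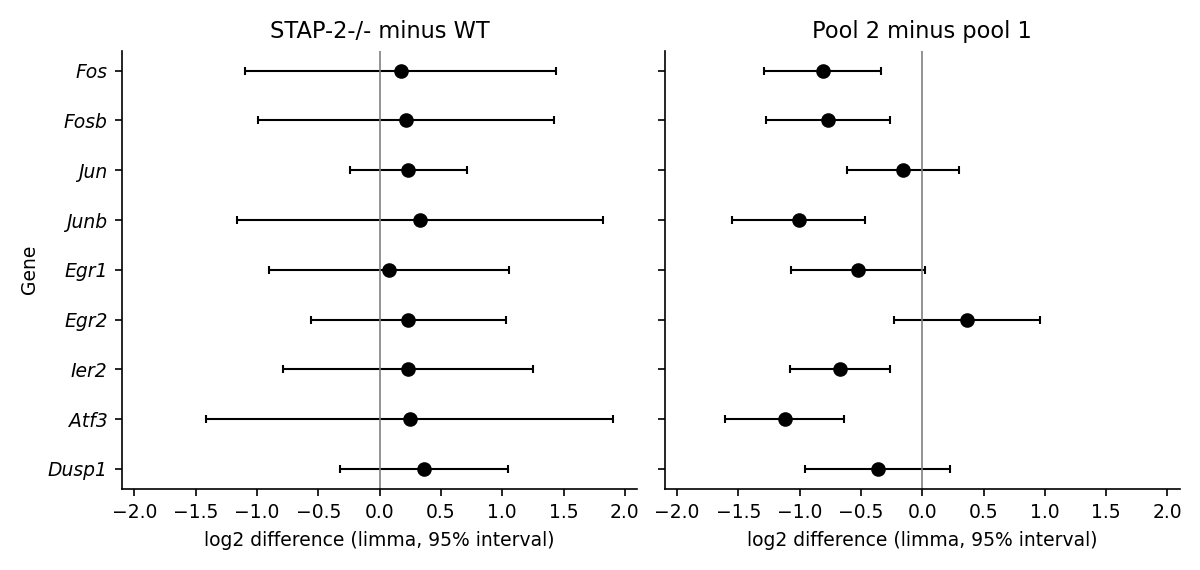
Fitted log2 differences of the 9 measured immediate-early genes (points) with 95% intervals (bars) from limma on 4 arrays. The left panel gives STAP-2-/- minus WT, where the intervals of all 9 genes hold 0, and the right panel pool 2 minus pool 1, where those of Fos, Fosb, Junb, Ier2 and Atf3 lie below 0 before adjustment over all genes.

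Among the FOS proteins, Fos, the prototype partner of JUN in AP-1, read 2.48 on WT 1, 1.93 on WT 2, 2.91 on STAP-2-/- 1 and 1.84 on STAP-2-/- 2. Both arrays numbered 1 lay above both numbered 2, while the genotypes overlapped. The probe of Fos was spotted 10 times on each array, and 1 spot on STAP-2-/- 1 was flagged and left out. The SD between its spots was 0.017 to 0.036, so the differences between arrays were larger than the error of a spot. Fos was 1.46-fold higher on WT 1 than on WT 2 and 2.11-fold higher on STAP-2-/- 1 than on STAP-2-/- 2. Its fitted difference between pools was -0.81 (SE 0.179, limma adjusted p = 0.126), and that between genotypes 0.17 (SE 0.450). Fosb, a close relative with a splice form that lasts longer in neurons, read -2.05, -2.56, -1.57 and -2.60 on WT 1, WT 2, STAP-2-/- 1 and STAP-2-/- 2. It took the same order as Fos, and its pool difference was -0.77 (SE 0.190, limma adjusted p = 0.136).

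Of the JUN proteins, Junb, which can restrain JUN and takes part in T helper and epithelial responses, read -2.60 on WT 1, -3.46 on WT 2, -2.12 on STAP-2-/- 1 and -3.28 on STAP-2-/- 2. The arrays numbered 1 again lay above those numbered 2, by a gap of 0.68 between the nearest arrays. The pool difference of Junb was -1.01 (SE 0.201, limma adjusted p = 0.116), a 2.01-fold lower level in pool 2. Jun itself, the main partner of FOS, stayed within 0.40 over all 4 arrays, the narrowest range of the 9. Jun read 2.43 on WT 1, 2.44 on WT 2, 2.83 on STAP-2-/- 1 and 2.50 on STAP-2-/- 2, so the pools overlapped. It was also the 1 member whose genotypes did not overlap, with a gap of 0.065 between WT 2 and STAP-2-/- 2; by genotype, 24.9% of all tested genes did not overlap, 11.5% with STAP-2-/- higher and 13.4% with it lower. The genotype difference of Jun was 0.23 (SE 0.171, limma adjusted p = 1 after rounding).

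The EGR genes went separate ways. Egr1, the zinc finger factor that growth factors induce, read 1.38 on WT 1, 1.23 on WT 2, 1.83 on STAP-2-/- 1 and 0.94 on STAP-2-/- 2. The pools did not overlap, but WT 1 and WT 2 lay only 0.16 apart, and most of the pool difference of -0.52 (SE 0.204, limma adjusted p = 0.208) came from the STAP-2-/- arrays, which differed by -0.89. Without STAP-2-/- 1 the pool difference of Egr1 was -0.30. Egr2, a relative that also limits T cell activation, read -4.16 on WT 1, -3.45 on WT 2, -3.58 on STAP-2-/- 1 and -3.56 on STAP-2-/- 2. Here WT 1 was the low array, and the other 3 lay close together. Egr2 was the 1 member with a pool difference above 0, at 0.37 (SE 0.221, limma adjusted p = 0.351). The arrays that separate its pools, STAP-2-/- 1 and STAP-2-/- 2, differed by 0.024, less than 0.052, the largest median SD between spots of an array. Egr2 had 1 spot on each array, so its own spot error was not measured. Without WT 1 its pool difference was 0.077 and without STAP-2-/- 1 it was 0.65.

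Atf3, a stress-induced factor that represses inflammatory genes in macrophages, gave the largest pool difference of the group. It read 1.32 on WT 1, 0.40 on WT 2, 1.77 on STAP-2-/- 1 and 0.45 on STAP-2-/- 2. The arrays numbered 2 lay 0.044 apart, and both were at least 0.88 below the arrays numbered 1. Atf3 was 1.89-fold higher on WT 1 than on WT 2 and 2.50-fold higher on STAP-2-/- 1 than on STAP-2-/- 2. The fitted pool difference was -1.12 (SE 0.181, limma adjusted p = 0.101), and 3.50% of all tested genes had a larger one in size. Its genotype difference was 0.25 (SE 0.591).

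Ier2 read -1.02 on WT 1, -1.76 on WT 2, -0.86 on STAP-2-/- 1 and -1.46 on STAP-2-/- 2. It was the 1 member beside Egr2 whose pools lay farther apart in WT (-0.74) than in STAP-2-/- (-0.59), and its pool difference was -0.67 (SE 0.151, limma adjusted p = 0.128). Dusp1, which ends MAP kinase signalling and so acts against the other members, read 0.20 on WT 1, 0.033 on WT 2, 0.76 on STAP-2-/- 1 and 0.20 on STAP-2-/- 2. STAP-2-/- 1 stood apart from the other 3 arrays. WT 1 and STAP-2-/- 2 differed by 6.1e-05, so its pools were separate by less than 0.052, the largest median SD between spots of an array. The pool difference of Dusp1 was -0.36 (SE 0.221, limma adjusted p = 0.353), and its genotype difference 0.36 (SE 0.244). Without STAP-2-/- 1 its pool difference was -0.083 and without WT 1 it was -0.64. With pools that close left out, 6 of the 9 members had pool 1 above pool 2 by more than 0.052, the largest median SD between spots, as had 29.8% of all tested genes.

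**Figure D3:**
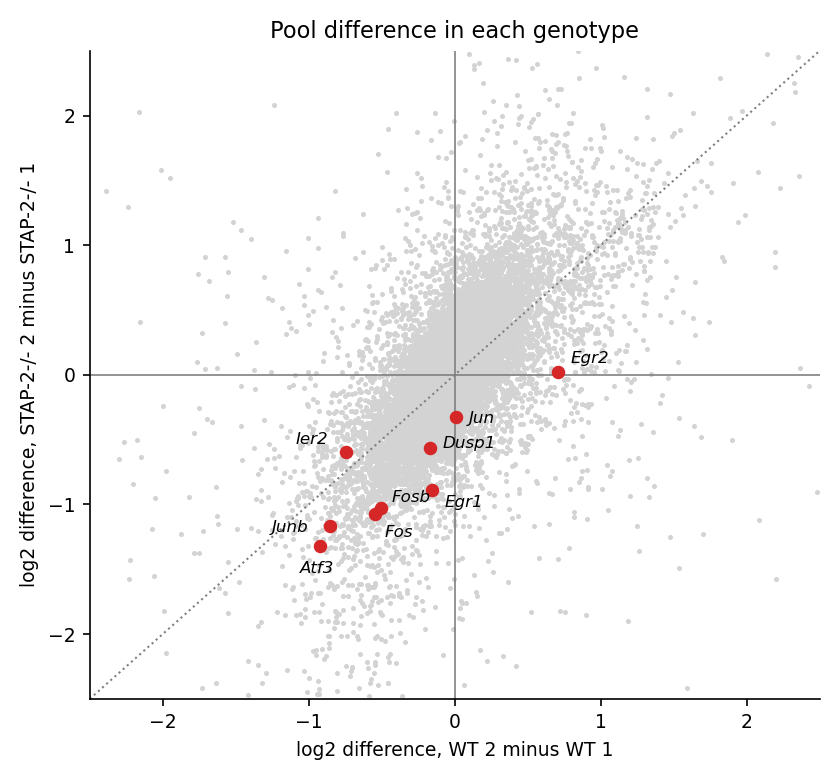
Difference between pools in each genotype for 15549 tested genes (grey points, 147 of them beyond the axes at 2.5) and the 9 measured immediate-early genes (red). The x axis is WT 2 minus WT 1 and the y axis STAP-2-/- 2 minus STAP-2-/- 1, in log2; the dotted line marks equal differences. Atf3, Junb, Fos, Fosb, Ier2, Egr1 and Dusp1 lie below 0 on both axes, Jun is near 0 in WT, and Egr2 lies at 0.71 in WT and 0.024 in STAP-2-/-.

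The pool difference was also taken in each genotype. Between the STAP-2-/- arrays it ran from -1.32 (Atf3) to 0.024 (Egr2), with a median of -0.89, and 8 of 9 members were below 0. Between the WT arrays it ran from -0.92 (Atf3) to 0.71 (Egr2), with a median of -0.51, and 7 of 9 were below 0. It was larger in size between the STAP-2-/- arrays for 7 of 9 members, and for 69.1% of all tested genes, which is near the members' share; the difference between genotypes was not tested. In size the difference between pools of each genotype exceeded the genotype difference in each pool for 5 of 9 members and for 32.6% of all tested genes. The medians over all tested genes were -0.039 between the STAP-2-/- arrays and -0.042 between the WT arrays.

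Other genes of the early response were split between the pools. Of 43 other immediate-early genes, 23 had a lower and 20 a higher fitted level in pool 2, the median was -0.046 and 0 passed limma. Without overlap, 11 were lower and 12 higher, beside 36.1% and 26.4% of all tested genes. STAP-2-/- 1 was the highest array for 17 of the 43 and for 34% of all tested genes. Csrnp1, a nuclear factor of the early response, differed between pools by -0.85 (SE 0.227) and Tnfaip3, an inhibitor of NF-kB, by -0.63 (SE 0.157), whereas Nfil3, a zipper factor of innate lymphocytes, differed by 1.93 (SE 0.322, limma adjusted p = 0.104). By genotype 21 of the 43 were higher and 22 lower in STAP-2-/-, and 0 passed. Socs3, the feedback inhibitor of STAT3, read 2.09 on WT 1, 2.64 on WT 2, 1.07 on STAP-2-/- 1 and 0.97 on STAP-2-/- 2, with a genotype difference of -1.34 (SE 0.237, limma adjusted p = 1 after rounding). Thus Socs3 was low on both STAP-2-/- arrays, and STAP-2-/- 1, the array with the highest Fos, did not stand out for it.

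Relatives of the AP-1 subunits split. Of 20 AP-1 and ATF relatives tested, 9 were higher and 11 lower in pool 2, 0 passed limma, and the median was -0.014. Batf, a partner of JUN in lymphocytes and dendritic cells, ran against Fos: it read -3.08 on WT 1, -2.27 on WT 2, -3.14 on STAP-2-/- 1 and -2.17 on STAP-2-/- 2, a pool difference of 0.89 (SE 0.107, limma adjusted p = 0.0872). Batf3 and Crem, a CREB relative with inducible repressor forms, had pool differences of 0.66 (SE 0.102) and 0.75 (SE 0.173). Of the EGR co-repressors and NR4A receptors, 4 of 6 were tested, since Egr4 and Nr4a3 were not well above background on any array. Of those 4, 3 were higher in pool 2 without overlap, as were 26.4% of all tested genes, and 0 passed. Nab2 and Nab1, which bind EGR proteins and curb them, differed by 0.44 (SE 0.126) and 0.43 (SE 0.172), and the orphan receptor Nr4a2 by 0.63 (SE 0.150). Nr4a1 read 1.73 on WT 1, 1.89 on WT 2, 2.65 on STAP-2-/- 1 and 1.47 on STAP-2-/- 2, so its highest array was that of Fos but its WT arrays did not follow the number.

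Other phosphatases of the DUSP family were split too. Of 11 tested, 6 were higher and 5 lower in pool 2, 0 passed, and the median was 0.20. Dusp10, Dusp2 and Dusp6, which act on JNK and p38 or on ERK, were higher in pool 2 by 0.60 (SE 0.122), 0.67 (SE 0.154) and 0.51 (SE 0.136). Of 23 genes of SRF, its partners and the MAP kinase input, 15 were lower and 8 higher in pool 2, with a median of -0.059 and 0 past limma. Of the 23, 12 were lower without overlap, as were 36.1% of all tested genes. Elk4, an ETS partner of serum response factor, ran with the members at -2.38 on WT 1, -3.20 on WT 2, -2.11 on STAP-2-/- 1 and -3.06 on STAP-2-/- 2, a pool difference of -0.88 (SE 0.143, limma adjusted p = 0.101). The kinase gene Map2k1 and the SRF coactivator gene Mrtfa differed by -0.42 (SE 0.112) and -0.36 (SE 0.099).

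Genes reported elsewhere as targets of AP-1 or EGR factors stood on the other side. Of 17 tested, 14 were higher in pool 2, all 14 without overlap, where 26.4% of all tested genes were, and 0 passed limma; their median was 0.79. The matrix metalloproteinase gene Mmp13 read -2.89 on WT 1, -0.56 on WT 2, -3.48 on STAP-2-/- 1 and -1.23 on STAP-2-/- 2, a pool difference of 2.29 (SE 0.315, limma adjusted p = 0.0892). The cytokine gene Il11 differed by 2.20 (SE 0.322) and the hyaluronan receptor gene Cd44 by 1.11 (SE 0.107, limma adjusted p = 0.0872). Both arrays numbered 1 thus had higher Fos, Junb and Atf3 and lower Mmp13, Il11 and Cd44 than both arrays numbered 2. Whether the members act on these genes here was not tested.

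**Figure D4:**
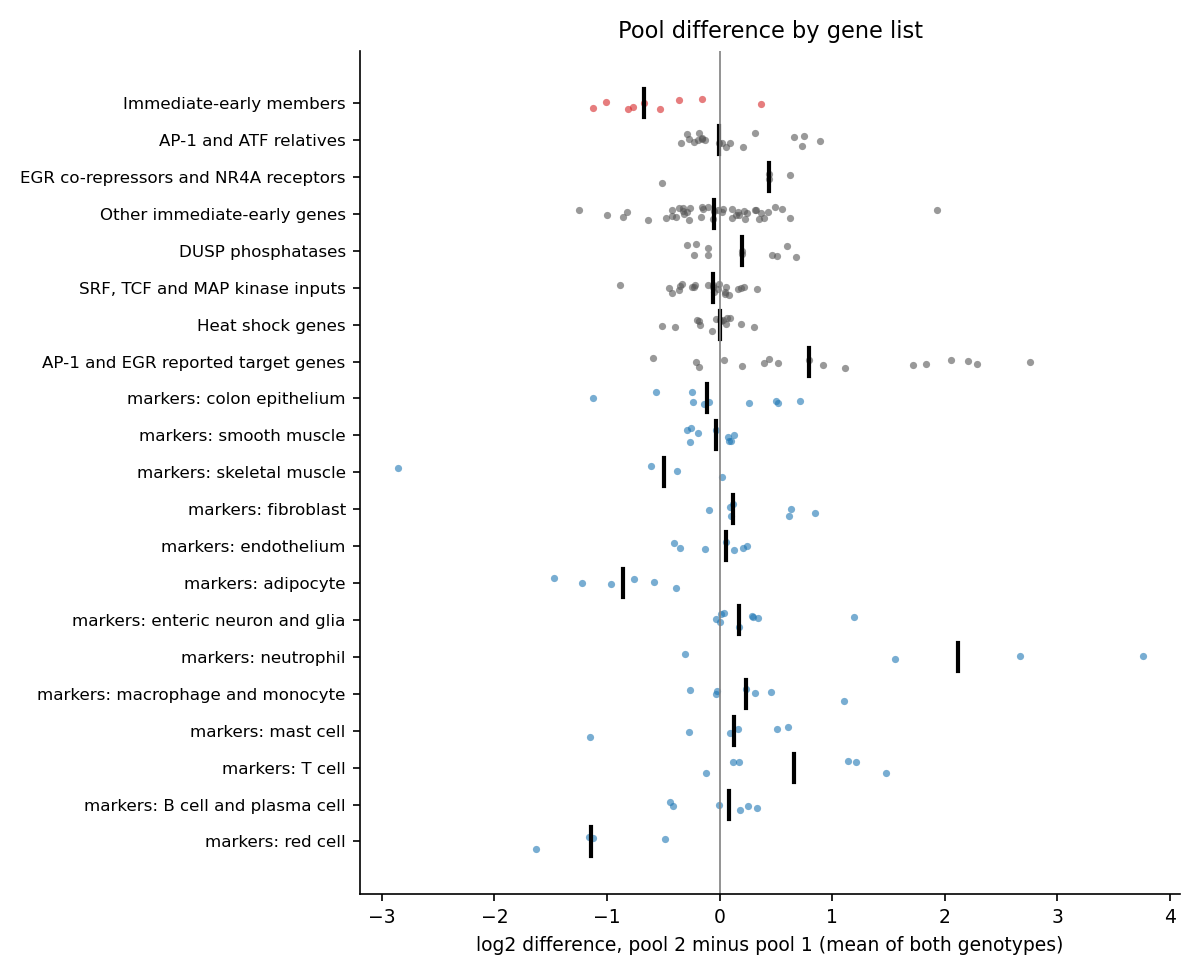
Difference between pools by gene list. Each point is a tested gene, the x axis is the log2 difference, pool 2 minus pool 1, taken as the mean of both genotypes, and black bars are list medians; members are red, related lists grey and marker lists blue. The members' median is -0.67, that of AP-1 and EGR reported targets 0.79, and those of neutrophil and red cell markers 2.11 and -1.14.

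Markers of other cell types also differed in level between the pools, and none of them passed limma. Of all tested genes, 36.1% were lower and 26.4% higher in pool 2 without overlap. All 4 tested red cell genes and all 6 adipocyte genes had a lower fitted level in pool 2, as most members had. Their medians were -1.14 and -0.86, and 4 of each list did not overlap. The summed level of the red cell genes was 35.7 and 37.3 on the arrays numbered 1 and 20.8 and 23.7 on those numbered 2. That of the adipocyte genes was 43.6 and 26.2 against 27.6 and 19.6, which overlap, and WT 1 was the highest array there, not STAP-2-/- 1. Of 4 skeletal muscle genes tested, 3 were lower in pool 2 without overlap, with a median of -0.49 and summed levels between 1.96 and 2.16. T cell genes were higher in pool 2 for 5 of 6, with a median of 0.66, but only 2 were so without overlap. The median level of that list was -2.94 on WT 1, -2.37 on WT 2, -2.41 on STAP-2-/- 1 and -0.99 on STAP-2-/- 2. Neutrophil genes ran the other way from the members too, 3 of 4 tested being higher in pool 2 without overlap, with a median of 2.11. S100a9, a calprotectin subunit, read -4.08 on WT 1, 1.02 on WT 2, -3.71 on STAP-2-/- 1 and -1.30 on STAP-2-/- 2; the summed level of that list was 58.4 and 57.1 against 52.8 and 44.3, set mostly by Csf3r, which was lower in pool 2, and Mmp8 was not well above background. Of 15 heat shock genes, 8 were higher and 7 lower in pool 2, with a median of 0.0025. Without overlap, 5 of them were lower and 1 higher. Hspa8 differed by -0.52 (SE 0.118) and Dnajb1 by -0.40 (SE 0.160). The part of these cells, or of tissue handling, in the members' values was not tested.

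The genes whose pattern over the 4 arrays lay nearest to the median of the members, by Euclidean distance between values centred on each gene's mean, were Ace, Tmod4, Vangl2, 5031439G07Rik and Ern1. Their distances ran from 0.070 to 0.085 over 15144 genes, with a median distance of 0.75. Ace, which encodes angiotensin-converting enzyme, read -2.17 on WT 1, -2.68 on WT 2, -1.84 on STAP-2-/- 1 and -2.71 on STAP-2-/- 2. Among the members, Fosb (0.139) and Fos (0.153) lay nearest to the group's median and Egr2 (1.08) farthest, beyond Jun (0.551). With 4 arrays such likeness is a description only.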

How the data were processed

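Total RNA of DSS-treated colons was labelled with Cy3 and put on 4 Agilent arrays of 44397 spots, per the labels' protocols. Agilent Feature Extraction 10.7.1.1, named in the submitters' processing notes, gave the deposited spot intensity (processed signal), from which background and a spatial trend were removed per the file headers; median spot and background intensity are deposited too. The deposited value table holds a ratio, the processed signal over 1 constant per array, used as an alternative only.

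Here log2 signals were scaled to each array's 75th percentile over 43020 non-control spots, which was 2134 to 2348; between 68.4% and 70.5% of those spots were well above background, no spot was saturated, and the number of arrays limits the precision. Flagged spots (129 to 190 per array) were left out and repeat spots averaged. Of 39429 probes, 27427 were named through their RefSeq accession, with names from GRCm38.p6. The deposited data name another build, so coordinates are given only for the promoter windows, in GRCm38.p6. A gene with several probes kept the one with the highest mean. Genes were tested if well above background on both arrays of a genotype: 15559 genes by genotype and 15560 by pool number. limma 3.58.1 (lmFit, eBayes) in R 4.3.3 was fitted over all of them with no covariate. Tests were two-sided, with Benjamini-Hochberg adjustment at 0.05. The fit was also run on simulated arrays with the same spread for all genes and no pool difference. Those arrays are unlike these data, so that run does not show how many changes the test finds here. Python 3.11.15 was used otherwise.

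The members and all lists were chosen with earlier results of these data known. Genes named from a related list are among its 3 lowest unadjusted p in the genotype or the pool fit; Socs3 and Stap2 were added, and 5 genes nearest in pattern. Marker genes are named beside their list. Alternatives covered scaling, background correction, filters on dim probes, flagged spots, several probes, limma settings, a block and leaving out each array.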

Additional observations from a re-analysis of the deposited data

Results flagged for a closer look

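For 3 of 9 members the genotype difference had opposite signs in the pools, each beyond 0.052, the largest median SD between spots of an array. The same held for 27.3% of all tested genes, a share near that of the members. The SD between spots does not measure the spread between pools. STAP-2-/- minus WT was 0.43 in pool 1 and -0.092 in pool 2 for Fos, 0.44 and -0.29 for Egr1, and 0.58 and -0.11 for Egr2. With 1 array for each genotype and pool the difference between the pools was not tested.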

How the results depend on the processing

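Under 11 settings other than leaving out an array, 0 of the members' differences changed sign and none passed; the lowest limma adjusted p was 0.699 by genotype and 0.0629 by pool number. The members without overlap between genotypes numbered 2, not 1, with median scaling, quantile normalization, the authors' value table and no filter on dim probes, which adds Egr3. Those without overlap between pool numbers were 7, not 8, with median scaling, quantile normalization and the authors' value table. With median spot signals, normexp background correction and quantile normalization together, 1 gene, Stap2, passed by genotype. The replicate number as a block gave 0 genes and 0 members past the genotype test, and 1041 genes at an unadjusted p under 0.05; deviations of arrays of equal number correlated by 0.596, and with 2 numbers this does not show that the numbers pair the samples. No fit with genotype as a block passed any gene by pool number.

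Leaving out 1 array in turn, the members' median by genotype ran from -0.25 to 0.64. Counts without overlap are not given for these fits, because 1 array set against 2 overlaps less easily than 2 against 2. By genotype Fos ran from -0.37 to 0.71, Fosb from -0.30 to 0.73, Junb from -0.25 to 0.91, Egr1 from -0.37 to 0.52, Egr2 from -0.12 to 0.59, Ier2 from -0.14 to 0.60 and Atf3 from -0.42 to 0.91. By pool number Jun ran from -0.36 to 0.043, and the other 8 kept their sign, Dusp1 from -0.64 to -0.083, Egr1 from -0.75 to -0.30 and Egr2 from 0.077 to 0.65. Genes past the pool number test ran from 0 to 1; the 1, without WT 1, was Six2. The cause was not tested.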
